A study of Mus musculus with 12 samples.

Results

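The complement genes C4b, C3, C1qa, C1qb, C1qc, Cfb, Cfp, C3ar1 and C5ar1 were followed in RAW 264.7 cells after miR-223 was added or blocked. The 9 genes were taken as components and receptors of 1 pathway, and the set was chosen by a measured value, the log2 difference of C4b between the mimic and the inhibitor in these same arrays, which had the smallest p of all genes. Of the 9, 8 were each the only symbol of 1 row of the deposited table, out of 23521 rows with a single symbol for 22180 genes. C3 had no such row and is not analysed here. The contrast of mimic with inhibitor is therefore given for all members, and every contrast of C4b, as a description without a test. The other 7 members were tested against scramble, in arrays that the choice of C4b had also used.

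RAW 264.7 is a mouse line of the monocyte/macrophage lineage that grows attached and was transformed by an Abelson leukemia virus. Cells were grown to confluency, transfected and collected after 48 h, and total RNA was hybridised to whole-transcript arrays. The 3 groups received an irrelevant scramble oligonucleotide, pre-miR-223 (which adds miR-223) or anti-miR-223 (which blocks it), with 4 arrays each and 12 in all. Every group was transfected, so no untransfected cells stand beside them. The arrays are titled as biological replicates of this 1 line; the labels do not say whether they came from separate cultures, so p-values measure the spread between these arrays, which may be technical. No row carried Mir223 as its only symbol, and delivery of the oligonucleotides was not checked here.

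Complement is a cascade of blood and tissue proteins that marks particles for uptake and can lyse cells. In the classical route C1q, built from the C1qa, C1qb and C1qc chains, binds its target, the protease C1r activates C1s, and C1s cleaves C4 and C2; in the alternative route factor B (Cfb) forms the convertase that properdin (Cfp) stabilises. Both routes cleave C3, and the fragments C3a and C5a act on the receptors C3ar1 and C5ar1. The liver makes most plasma complement, whereas macrophages are a main source of C1q and myeloid cells of properdin.

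The 2 mature strands of miR-223 are shown because the mimic and the inhibitor are named for miR-223. The group labels name no strand, so which one the mimic adds or the inhibitor binds is not given here. Capitals mark the seed, bases 2 to 8 from the 5′ end, which pairs with target RNAs. The sequences are those of RefSeq on GRCm38.p6, at chrX:96242884-96242905 for the 3p strand and chrX:96242842-96242864 for the 5p strand, both on the plus strand.
mmu-miR-223-3p: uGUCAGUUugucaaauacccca
mmu-miR-223-5p: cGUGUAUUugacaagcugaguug
The 3p seed, GUCAGUU, pairs with AACUGAC in a target. Of the 1679 mature mouse miRNA names in that table, 1 carried this seed.

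Values are log2 signals, normalised between arrays by the authors, with array medians between 2.21 and 2.31. Genes were tested if their mean over all arrays lay above the 40th percentile of all rows, log2 2.01, which left 14611. Replicate 4 of anti-miR-223 stood apart: its median correlation with the others, across genes, was 0.967 against 0.988 to 0.992, and 629 genes lay over 2-fold from their mean in it against at most 37 in another array. Differences that involve anti-miR-223 are therefore given with and without it. All 10 macrophage markers, among them Csf1r and Adgre1, lay above log2 2.01, with gene means from 2.42 for Mertk to 11.19 for Lyz2. Their mean per array was between 7.37 and 7.67 with scramble, 7.26 and 7.55 with pre-miR-223, and 7.24 and 7.80 with anti-miR-223, or at most 7.47 without that array. Markers of hepatocytes, fibroblasts, epithelium and lymphoid cells (23 of 24 with a row) had gene means between 1.41 and 3.52, the highest for Krt8, and 11 of the 23 lay above log2 2.01. An array signal has no true zero and cannot be compared between genes, so these ranges show only where genes of other tissues lie on this scale. In bulk RNA, fewer expressing cells and less RNA per cell cannot be told apart.

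C4b encodes complement C4, the thioester protein that C1s cleaves. It stood higher in every anti-miR-223 array than in any of the other 8. With scramble the 4 arrays read 1.82, 2.08, 2.10 and 1.71, with pre-miR-223 1.85, 1.97, 1.83 and 1.69, and with anti-miR-223 2.60, 2.54, 2.72 and 2.24. Scramble and pre-miR-223 overlapped, and the lowest anti-miR-223 array was replicate 4. The means were 1.93 ± 0.19 (SD, n = 4) with scramble, 1.83 ± 0.12 with pre-miR-223 and 2.52 ± 0.20 with anti-miR-223.

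The C4b difference between pre-miR-223 and anti-miR-223, which chose the gene, was -0.69 on the log2 scale (95% interval of the model -0.96 to -0.42). It ranked 1 of 14611 by p and 45 by size; the next gene by p, the keratin-associated Krtap5-5, differed by -0.59 (-0.87 to -0.31). Anti-miR-223 minus scramble was 0.60 (0.32 to 0.87) and pre-miR-223 minus scramble -0.09 (-0.36 to 0.18). These comparisons share arrays, so they are not separate evidence. Without replicate 4 of anti-miR-223 the C4b differences grew to -0.78 (-1.04 to -0.53) against pre-miR-223 and 0.69 (0.44 to 0.94) against scramble. Over all genes limma, a linear model with moderated variance, called 0 of 14611 (0%) between pre-miR-223 and anti-miR-223 at a Benjamini-Hochberg adjusted p under 0.05, and 528 (3.61%; 1.05% higher and 2.57% lower with the mimic) had an unadjusted p under 0.05, or 4.89% without replicate 4. Those groups did not overlap for 1.67% of genes, 0.698% being higher with the mimic and 0.972% higher with the inhibitor. Every anti-miR-223 array exceeded all 8 others for 11 genes (0.0753%), C4b among them, and lay below all others for 0.0684%. Nothing is read from these shares about C4b, which this contrast chose.

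**Figure D1:**
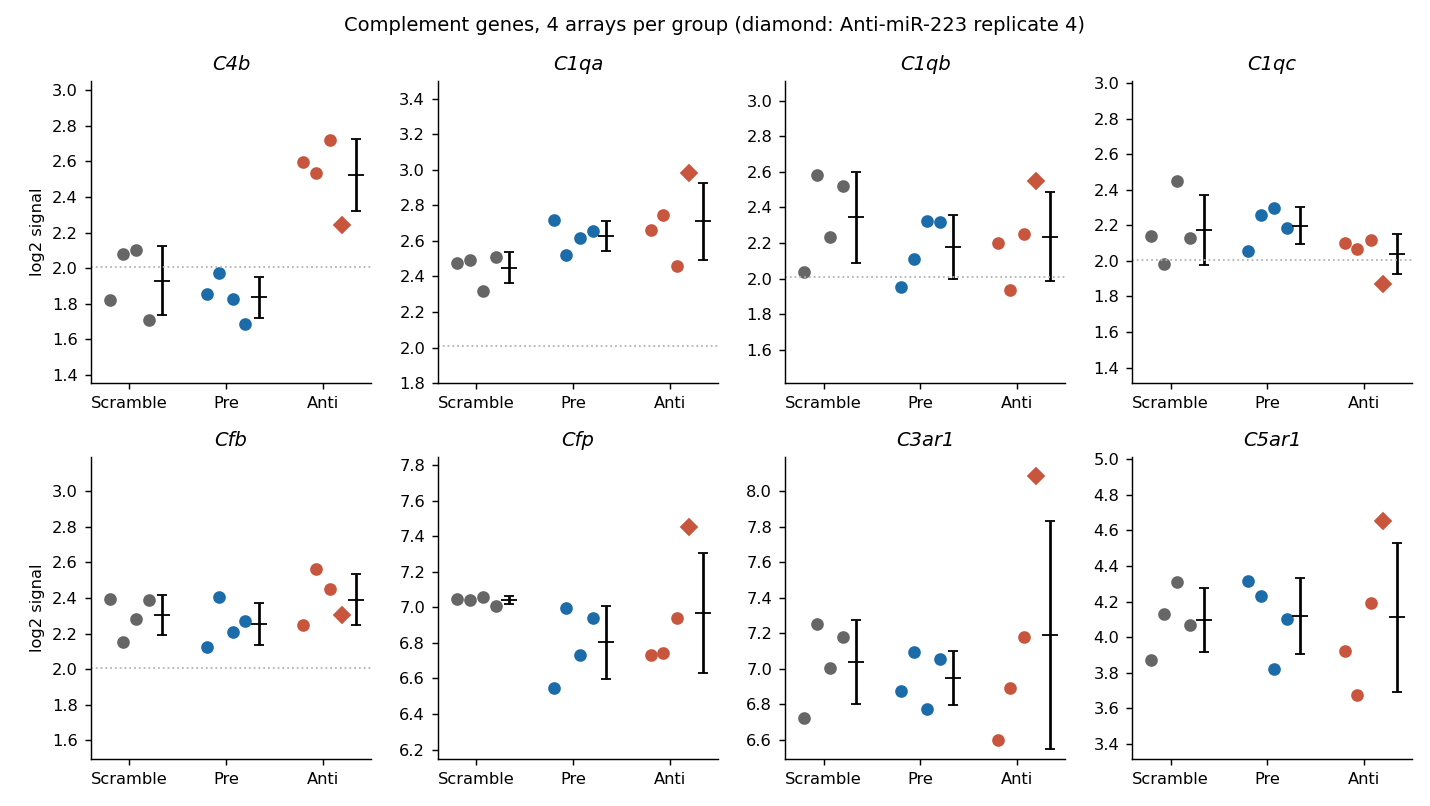
Log2 signal of the 8 complement genes in each of the 12 arrays (points, the diamond being replicate 4 of anti-miR-223) with the mean and SD of each group of 4 (black). Each panel spans the same log2 range around its own centre; the dotted line is the lowest level tested, 2.01. C4b is above 2.2 in the anti-miR-223 arrays alone, while in the other panels each anti-miR-223 group overlaps scramble.

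C4b lay close to the lowest level tested. Its mean over the 8 scramble and pre-miR-223 arrays was 1.88, under log2 2.01, so it passed the level requirement only through the anti-miR-223 arrays. The other 7 members passed without them. Near the bottom of the scale background compresses differences, and the size of the C4b difference is uncertain. C4a, which encodes the sex-limited protein and is a close copy of C4b, had a row of its own, below the level tested. Its means were 1.5 ± 0.25 with scramble, 1.51 ± 0.27 with pre-miR-223 and 1.42 ± 0.18 with anti-miR-223 (SD, n = 4 each), or 1.39 ± 0.22 without replicate 4 (n = 3), with overlap of all groups. Probes for copies this alike can take up each other's transcripts, and how far they do so here was not tested.

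Anti-miR-223 minus scramble stayed positive for C4b in each alternative in which the gene could be fitted. Most of these alternatives could not have turned its sign. Every anti-miR-223 array lay above every scramble array, so neither leaving out nor weighting single arrays could do so. The replicate block, trend and robust variance, fits of the compared groups alone, no level filter and the mean of rows left the group means unaltered. Only the scalings could have turned the sign, and the other values show only the size of the difference. Anti-miR-223 minus scramble lay between 0.52 and 0.69 when single arrays were left out; the lowest value came on leaving out scramble replicate 4 and the highest on leaving out the array that stood apart. It was 0.58 with arrays centred on their medians, 0.59 with cyclic loess and 0.72 with array weights. With the level requirement raised to the 60th percentile of all rows C4b was not among the genes fitted.

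**Figure D2:**
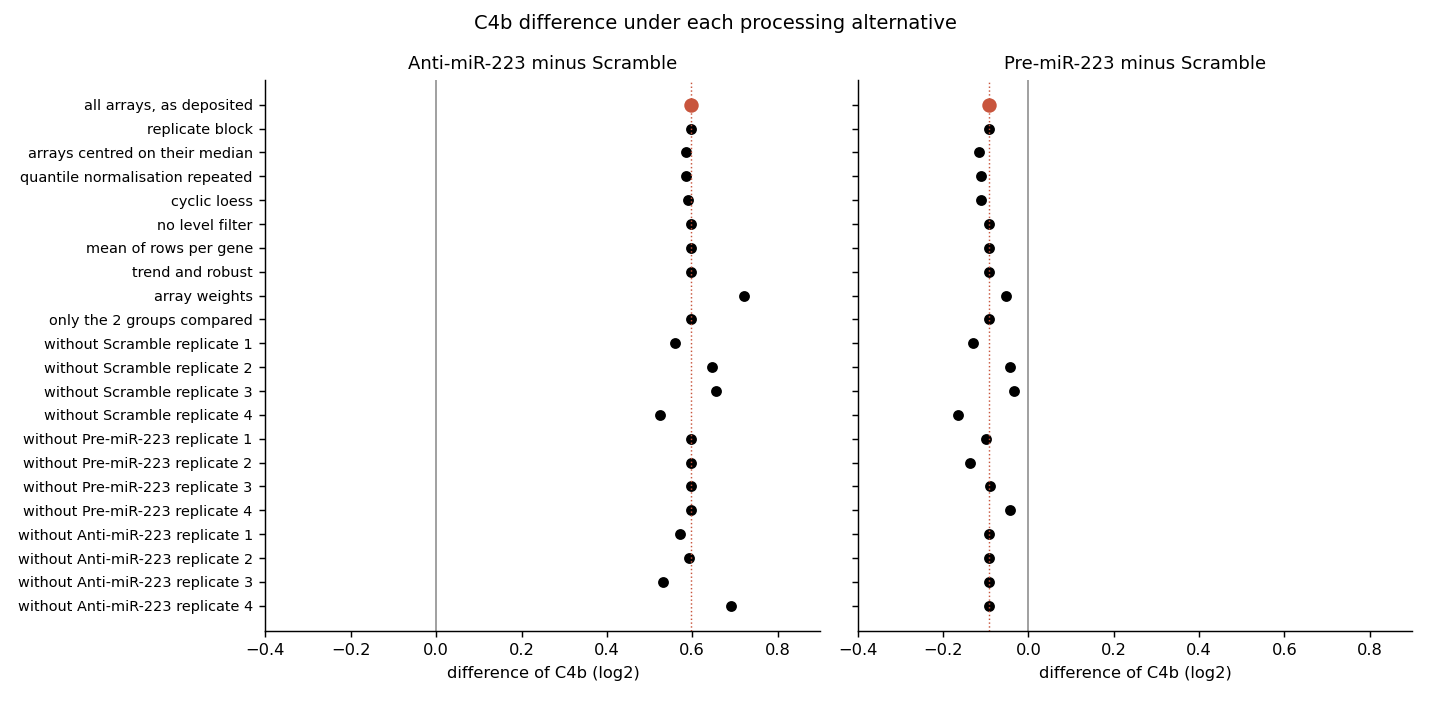
Difference of C4b on the log2 scale (x axis) for anti-miR-223 minus scramble (left) and pre-miR-223 minus scramble (right) under each processing alternative (y axis); the red point uses all arrays as deposited. On the left the points run from 0.52 to 0.72 and on the right from -0.17 to -0.03.

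C4b lies in the class III region of the major histocompatibility complex on chromosome 17, next to Tnxb (tenascin XB) and Stk19, and near Cfb. Among the 6 nearest tested genes on each side no difference was as large as that of C4b. C4b was chosen for its difference in these arrays and its neighbours were not, so this was to be foreseen and is a description. Anti-miR-223 minus scramble lay between -0.33 for Nelfe and 0.23 for Stk19, or -0.42 and 0.21 for the same genes without replicate 4. The Nelfe interval was -0.75 to 0.09, or -0.83 to -0.01 without replicate 4. It reached past the size of the C4b difference, so a shift of that size is not excluded for Nelfe. None of the 12 separated anti-miR-223 from scramble, with or without that array, where 227 of 14611 genes (1.55%) did so in either direction. Stk19 had 3.83 ± 0.07 with scramble and 4.06 ± 0.14 with anti-miR-223 (SD, n = 4), an interval for the difference of 0.01 to 0.46, and did not pass limma's test (adjusted p = 1.0). Without replicate 4 the interval was -0.03 to 0.45. Tnxb differed by 0.07 (-0.17 to 0.31), or 0.07 (-0.19 to 0.32) without that array. Cfb, the fifth tested gene on the Stk19 side, differed by 0.09, or 0.12 without it.

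**Figure D3:**
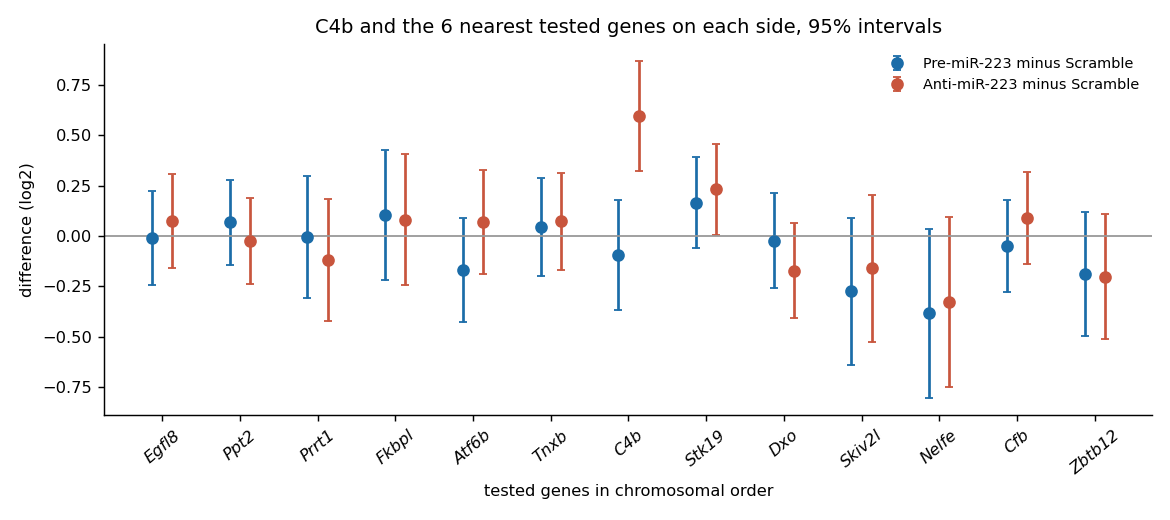
Differences on the log2 scale with 95% intervals for C4b and the 6 nearest tested genes on each side, in chromosomal order with genes below the level tested left out; blue is pre-miR-223 minus scramble and red anti-miR-223 minus scramble. C4b is the highest red point, at 0.60, and the red points of its neighbours lie between -0.33 and 0.23. C4b was chosen for its difference in these arrays, so its place above them is a description.

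The genes whose pattern over the 12 arrays was most like that of C4b, after each array was centred on its median, were Igsf8, an immunoglobulin superfamily gene, with Pearson r = 0.822, Nmur1, a neuromedin U receptor gene, with 0.817, Cyp2a22 with 0.816, Tll2 with 0.798 and Aipl1 with 0.794. The most opposite were Bicc1 with -0.841, Notch4 with -0.822, Usp17le with -0.777, Ednrb with -0.766 and Ccn6 with -0.764. They were picked as the extremes of 12936 genes over 12 shared arrays and are a description. Cyp2a22 had means of 1.84 with scramble and 1.97 with pre-miR-223, so like C4b it passed the level requirement only through the anti-miR-223 arrays. Over the 11 arrays without replicate 4 of anti-miR-223, Igsf8 had r = 0.820 and Bicc1 -0.837. Igsf8 had means of 4.0 with scramble, 3.94 with pre-miR-223 and 4.30 with anti-miR-223. No other complement member was among these genes.

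C1qa, C1qb and C1qc encode the 3 chains of C1q, and the genes lie side by side on chromosome 4. Their array signals did not move together. The means over all arrays, 2.60 for C1qa, 2.25 for C1qb and 2.14 for C1qc, lie close to background, which compresses differences. Whether the RNA of these genes moved together therefore cannot be told from these signals or their correlations. C1qa read 2.48, 2.49, 2.32 and 2.51 with scramble, 2.72, 2.52, 2.62 and 2.66 with pre-miR-223, and 2.66, 2.74, 2.46 and 2.98 with anti-miR-223. Every pre-miR-223 array exceeded every scramble array, by as little as the gap from 2.51 to 2.52, while anti-miR-223 overlapped scramble through replicate 3.

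C1qa differed from scramble by 0.18 (95% interval -0.06 to 0.42) with pre-miR-223 and by 0.26 (0.02 to 0.50) with anti-miR-223. Neither passed the test over all genes (limma, adjusted p = 0.921 and 1.0). The unadjusted p for anti-miR-223 was 0.0371 by limma, and without replicate 4, its highest array, the difference was 0.17 (-0.05 to 0.39). C1qb read 2.03, 2.58, 2.24 and 2.52 with scramble, 1.95, 2.11, 2.32 and 2.32 with pre-miR-223, and 2.20, 1.94, 2.25 and 2.55 with anti-miR-223, with all groups overlapping. It differed from scramble by -0.17 (-0.50 to 0.16) with pre-miR-223 and -0.11 (-0.44 to 0.22) with anti-miR-223, or -0.21 (-0.52 to 0.09) without replicate 4.

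C1qc read 2.14, 1.98, 2.45 and 2.13 with scramble, 2.06, 2.26, 2.30 and 2.19 with pre-miR-223, and 2.10, 2.07, 2.12 and 1.87 with anti-miR-223, again with overlap. It differed by 0.02 (-0.22 to 0.27) with pre-miR-223, a sign that turned after centring (-0.00103) and with array weights (-0.02). With anti-miR-223 it differed by -0.14 (-0.38 to 0.11), or -0.08 (-0.33 to 0.17) without replicate 4. Across the 12 arrays C1qa and C1qc had Pearson r = -0.684 (permutation p = 0.0160, adjusted over the 3 pairs of C1q genes 0.0480 and over all 28 pairs of members 0.124) and Spearman rho = -0.531 (permutation p = 0.0778, adjusted 0.233). The 2 arrays farthest from the median of C1qa were scramble replicate 3 and anti-miR-223 replicate 4, and r was -0.07 without them. It was -0.494 without anti-miR-223 replicate 4 alone and -0.725 after each group mean was subtracted. Leaving out the extremes of C1qa also narrows its range, so how far the relation rests on those arrays cannot be told. C1qa and C1qb had r = 0.04 (permutation p = 0.906) with rho = -0.15 (p = 0.650), and r = -0.50 without the same 2 arrays. C1qb and C1qc had r = -0.25 (permutation p = 0.429) with rho = -0.13 (p = 0.698), and r = -0.24 without scramble replicate 2 and anti-miR-223 replicate 2. Adjusted over the 3 pairs, p was 0.906 and 0.643 for these r and 0.698 for each rho.

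Cfb, factor B, supplies the catalytic subunit of the alternative convertase. It read 2.39, 2.15, 2.28 and 2.39 with scramble, 2.12, 2.41, 2.21 and 2.27 with pre-miR-223, and 2.25, 2.57, 2.45 and 2.30 with anti-miR-223. The groups overlapped. The differences from scramble were -0.05 (95% interval -0.28 to 0.18) with pre-miR-223 and 0.09 (-0.14 to 0.32) with anti-miR-223, or 0.12 (-0.12 to 0.36) without replicate 4.

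Cfp, properdin, was steady with scramble at 7.05, 7.04, 7.06 and 7.01, a mean of 7.04 ± 0.02 (SD, n = 4). The pre-miR-223 arrays read 6.54, 6.99, 6.73 and 6.94, all below scramble, with a mean of 6.80 ± 0.21. With anti-miR-223 it read 6.73, 6.74, 6.94 and 7.45; only replicate 4 lay above scramble. The difference was -0.24 (95% interval -0.56 to 0.09) with pre-miR-223 and -0.07 (-0.40 to 0.25) with anti-miR-223, and limma's adjusted p was 0.921 and 1.0. Without replicate 4 of anti-miR-223 the latter was -0.23 (-0.48 to 0.01; adjusted p = 0.712), and for pre-miR-223 the unadjusted p by limma fell from 0.140 to 0.0434 (adjusted p = 0.531), the difference being unaltered at -0.24. With cyclic loess the pre-miR-223 difference was -0.12. Macrophage markers had a median difference of -0.13 with pre-miR-223 and -0.03 with anti-miR-223, or -0.14 without replicate 4, against -0.05, -0.01 and -0.05 over all tested genes; their part in the Cfp values was not tested.

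C3ar1 is the receptor for C3a and C5ar1 the main receptor for C5a, both on myeloid cells. C3ar1 read 6.72, 7.25, 7.01 and 7.18 with scramble, 6.87, 7.10, 6.77 and 7.05 with pre-miR-223, and 6.60, 6.89, 7.18 and 8.09 with anti-miR-223. The inhibitor group spanned the whole range of the gene, with its lowest array and, in replicate 4, its highest. The differences from scramble were -0.09 (95% interval -0.61 to 0.43) with pre-miR-223, which was 0.03 with cyclic loess, and 0.15 (-0.37 to 0.67) with anti-miR-223, which turned to -0.15 (-0.47 to 0.18) without replicate 4.

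C5ar1 read 3.87, 4.13, 4.31 and 4.07 with scramble, 4.31, 4.23, 3.82 and 4.10 with pre-miR-223, and 3.92, 3.67, 4.19 and 4.65 with anti-miR-223. The groups overlapped and their means, 4.10, 4.12 and 4.11, were nearly the same. The differences were 0.02 (-0.37 to 0.42), or -0.0015 after centring, and 0.01 (-0.38 to 0.41), which was -0.17 (-0.48 to 0.15) without replicate 4 of anti-miR-223.

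**Figure D4:**
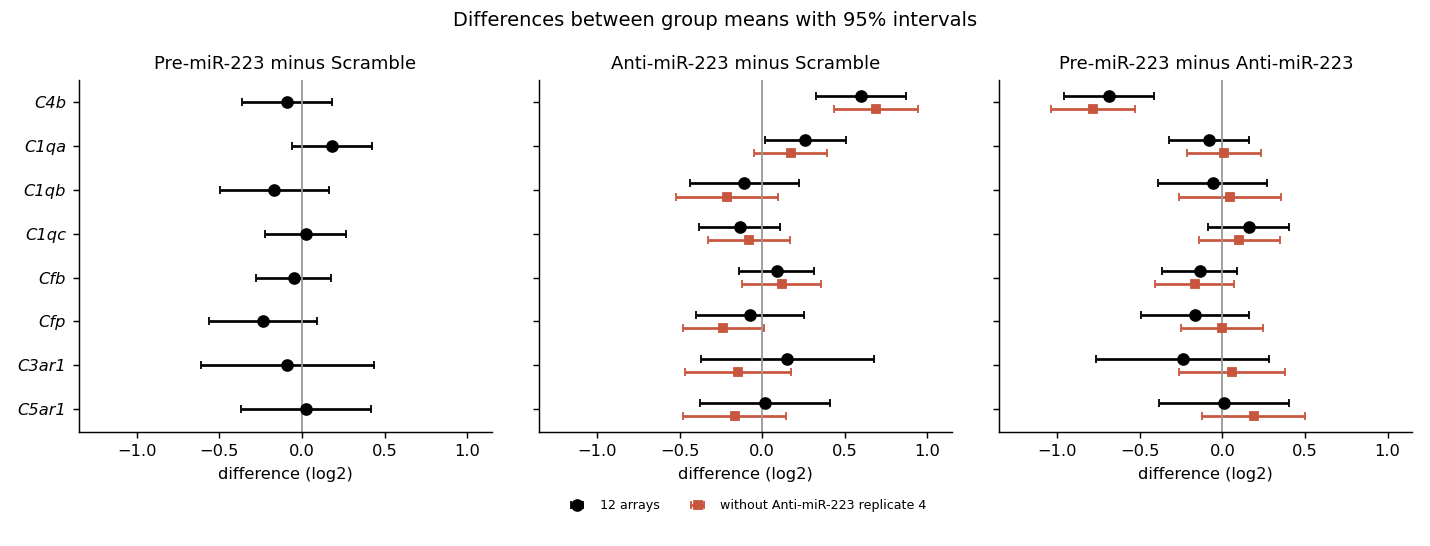
Differences between group means on the log2 scale (x axis) with 95% intervals of the model for the 8 genes (y axis); black uses 12 arrays and red leaves out replicate 4 of anti-miR-223. With anti-miR-223 minus scramble, C4b lies at 0.60 (black) and 0.69 (red), and C3ar1 moves from 0.15 to -0.15 between them. C4b is a description, since the contrast of pre-miR-223 with anti-miR-223 in these arrays chose it.

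Among the 7 members other than C4b, limma called 0 in either comparison with scramble, against 0 of 14611 genes (0%) in each. The groups did not overlap for 2 of the 7 with pre-miR-223 (C1qa higher, Cfp lower). Over all genes this held for 435 (2.98%), 0.773% higher and 2.2% lower. With anti-miR-223 it held for 0 of the 7, against 1.55% of all genes, 0.52% higher and 1.03% lower. An unadjusted p under 0.05 by limma was reached by 0 of 7 with pre-miR-223, where 711 genes (4.87%; 1.02% higher and 3.85% lower) reached it. With anti-miR-223 it was reached by C1qa alone, where 294 genes (2.01%; 0.664% higher and 1.35% lower) did. Leaving out single arrays moved the pre-miR-223 total to between 314 and 1510, the lowest on leaving out its replicate 4 and the highest its replicate 2. The anti-miR-223 total ran from 220, with scramble replicate 2 left out, to 978. The latter (6.69%) left out the array that stood apart, and 0 of the 7 then reached it; for pre-miR-223 the same step gave 1371 genes (9.38%) and Cfp alone of the 7. The median difference of the 7 was -0.05 with pre-miR-223 and 0.01 with anti-miR-223, the same as -0.05 and near -0.01 over all tested genes. It was -0.15 with anti-miR-223 without replicate 4, against -0.05 over all tested genes. For 6 of the 7, C3ar1 being the exception, the interval lay wholly within 1.5-fold up or down in each comparison. The same held for 82.8% and 88.1% of all genes. Without replicate 4 of anti-miR-223 the C3ar1 interval for anti-miR-223, -0.47 to 0.18, also lay within it. The C1q genes and Cfb lie close to background, which compresses differences, so their intervals do not bound the change in their RNA.

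Correlation between members was also taken from array to array. Among 28 pairs of members, Cfp and C3ar1 had the highest Pearson correlation over the 12 arrays, with r = 0.799 (permutation p = 0.00387, adjusted over the 28 pairs 0.0648) and Spearman rho = 0.559 (permutation p = 0.0623, adjusted 0.545). Leaving out the 2 arrays farthest from the median of Cfp (pre-miR-223 replicate 1 and anti-miR-223 replicate 4) gave r = 0.60. C3ar1 and C5ar1 had r = 0.767 (permutation p = 0.00463, adjusted 0.0648) and rho = 0.545 (permutation p = 0.0712, adjusted 0.545). Without replicates 4 and 1 of anti-miR-223, r was 0.508. C1qb and C3ar1 had r = 0.626 (permutation p = 0.0177, adjusted 0.124) and the highest rho of the 28 pairs, 0.643 (permutation p = 0.0273, adjusted 0.545), with r = 0.654 without scramble replicate 2 and anti-miR-223 replicate 2. Without anti-miR-223 replicate 4 alone, r was 0.541, 0.530 and 0.557 for these pairs in that order. None of the 3 pairs passed the adjustment, and replicate 4 of anti-miR-223 held the highest value of all of Cfp, C3ar1 and C5ar1. Without that array the largest r in size among the 28 pairs was negative, -0.817 for C1qa and Cfp. Over all 12 arrays C1qa and Cfp had r = 0.07 (permutation p = 0.815), and without scramble replicate 3 as well as that array r was -0.830. This pair was singled out after the values were seen.

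The promoters of C3ar1 and C5ar1 are shown because these are the receptors for the C3a and C5a fragments and their correlation is given above. They are the 250 bases before the start of transcription, from RefSeq on GRCm38.p6, both on the minus strand, at chr6:122856158-122856407 for C3ar1 and chr7:16259339-16259588 for C5ar1. Capitals mark AGGAAG, a form of the site of ETS factors such as the myeloid factor PU.1, or its reverse complement CTTCCT. Other forms, and the shorter core GGAA alone, are not marked.
C3ar1: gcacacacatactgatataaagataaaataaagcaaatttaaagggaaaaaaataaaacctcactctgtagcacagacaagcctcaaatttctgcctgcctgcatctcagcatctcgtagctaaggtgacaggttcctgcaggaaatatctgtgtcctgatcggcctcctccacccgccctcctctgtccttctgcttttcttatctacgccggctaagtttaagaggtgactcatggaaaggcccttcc
C5ar1: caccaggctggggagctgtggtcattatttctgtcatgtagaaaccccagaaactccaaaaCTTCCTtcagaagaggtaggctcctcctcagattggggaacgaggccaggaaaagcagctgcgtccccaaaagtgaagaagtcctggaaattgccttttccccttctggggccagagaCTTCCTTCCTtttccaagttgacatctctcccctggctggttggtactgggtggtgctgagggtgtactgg
The C5ar1 window held 3 matches, 2 of which overlap, and the C3ar1 window held 0. Of the 6 members with a promoter in that table (C3, C1qb, C1qc, Cfp, C3ar1 and C5ar1), 3 held a match, namely C1qb, C1qc and C5ar1, and 29.5% of all 32851 promoters of that length did. A match is only a stretch of letters and was not tied to binding here, and a window without a match may hold other forms of the site.

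The rest of the pathway was read from a list of 46 further complement genes. Of these, 43 had a row, 18 lay above the level tested and 25 below it. No gene of the 18 passed limma's test in either direction with pre-miR-223 or anti-miR-223. With pre-miR-223, 9 were higher and 9 lower, with a median difference of -0.01 and 0 at an unadjusted p under 0.05; of all tested genes 5086 were higher and 9525 lower, and 4.87% had such a p. With anti-miR-223, 11 were higher and 7 lower, with a median of 0.05, or -0.05 without replicate 4, and 1 gene, C1ra, had an unadjusted p under 0.05. Of all tested genes 6946 were higher and 7665 lower, and 2.01% had such a p. Over all tested genes the medians were -0.05 and -0.01, and -0.05 for anti-miR-223 without replicate 4.

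C1ra and C1s2 encode proteases of the C1 complex. C1ra read 2.09, 2.12, 2.62 and 2.19 with scramble, 2.30, 2.27, 2.70 and 2.07 with pre-miR-223, and 2.48, 2.72, 2.78 and 2.42 with anti-miR-223. The inhibitor arrays lay high but overlapped scramble through scramble replicate 3. C1ra differed from scramble by 0.35 (95% interval 0.02 to 0.68) with anti-miR-223, with an unadjusted p of 0.0407 and an adjusted p of 1.0 by limma, and by 0.41 (0.07 to 0.74; adjusted p = 0.712) without replicate 4. The pre-miR-223 difference was 0.08 (-0.25 to 0.41), and leaving out its replicate 3 gave -0.04.

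C1s2 had means of 2.02 ± 0.09 with scramble, 2.32 ± 0.34 with pre-miR-223 and 1.86 ± 0.17 with anti-miR-223 (SD, n = 4 each). The anti-miR-223 difference was -0.16 (-0.48 to 0.16), or -0.09 (-0.41 to 0.23) without replicate 4. Its pre-miR-223 difference was 0.30 (-0.02 to 0.62), with replicates 3 and 4 high at 2.53 and 2.66. It lay between 0.19 (replicate 4 left out) and 0.44 (replicate 2 left out). C1s2 passed the level requirement only through these pre-miR-223 arrays, so nothing is read from this difference or its interval. C8a, a chain of the lytic membrane attack complex, differed by 0.19 (-0.03 to 0.41) with pre-miR-223 and 0.12 (-0.10 to 0.34) with anti-miR-223, or 0.11 (-0.12 to 0.35) without replicate 4. C2, Hc (complement C5) and Serping1 (C1 inhibitor) lay below the level tested, with all arrays between 1.54 and 1.80, 1.49 and 1.76, and 1.49 and 1.87, respectively.

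Among membrane regulators, Cr1l (Crry, which protects rodent cells from C3 deposition) had means of 6.93 ± 0.12 with scramble, 6.83 ± 0.10 with pre-miR-223 and 6.90 ± 0.27 with anti-miR-223 (SD, n = 4 each). The differences from scramble were -0.11 (95% interval -0.38 to 0.17) and -0.03 (-0.31 to 0.24), the latter -0.07 (-0.35 to 0.22) without replicate 4. With all arrays both became 0.01 or less in size and positive with cyclic loess. Cd59a, which blocks the membrane attack complex, read 2.49, 2.47, 2.44 and 2.66 with scramble, 2.11, 3.12, 2.04 and 2.09 with pre-miR-223, and 2.26, 1.94, 2.33 and 4.30 with anti-miR-223. A single array stood far above the others in each of the groups given a miR-223 reagent. Its anti-miR-223 difference was 0.19 (-0.67 to 1.05), or -0.34 (-0.78 to 0.10) without replicate 4; with pre-miR-223 it was -0.18 (-1.04 to 0.68), or -0.44 without replicate 2. Cd55, another regulator of convertases, lay below the level tested, between 1.5 and 1.95.

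Among the other receptors, Itgam and Itgb2 form complement receptor 3, which takes up particles coated with C3 fragments. Itgam had means of 8.05 ± 0.17 with scramble, 8.0 ± 0.14 with pre-miR-223 and 8.13 ± 0.53 with anti-miR-223, where replicate 4 read 8.90 and the others at most 8.0. It differed from scramble by -0.05 (95% interval -0.49 to 0.39) with pre-miR-223, which was 0.07 with cyclic loess, and by 0.07 (-0.36 to 0.51) with anti-miR-223, or -0.18 (-0.44 to 0.07) without replicate 4. Itgb2 differed by -0.19 (-0.51 to 0.14) and -0.11 (-0.44 to 0.21), or -0.26 (-0.52 to 0.01) for the inhibitor without replicate 4. C5ar2, the second C5a receptor, differed by 0.17 (-0.24 to 0.57) and 0.13 (-0.27 to 0.54), or -0.05 for the inhibitor without replicate 4.

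**Figure D5:**
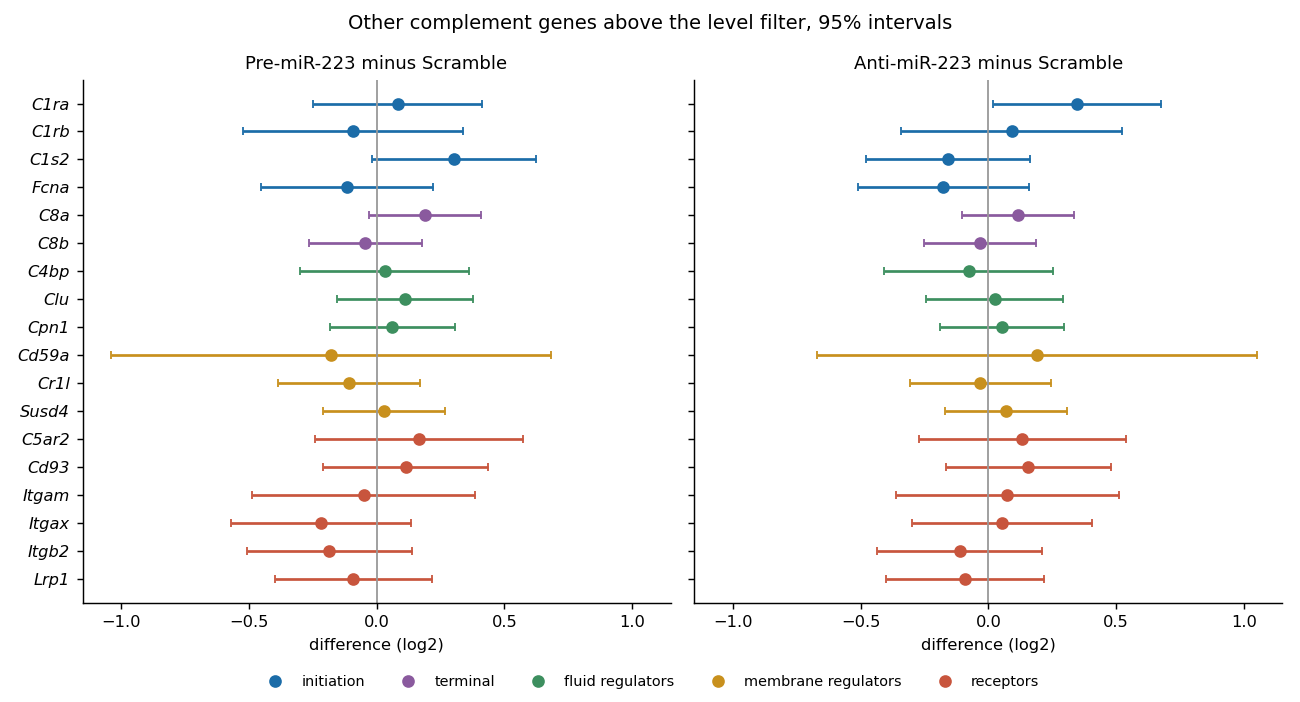
Differences on the log2 scale (x axis) with 95% intervals for the 18 other complement genes above the level tested (y axis), coloured by role; left, pre-miR-223 minus scramble, and right, anti-miR-223 minus scramble, all 12 arrays. All intervals on the left include 0, and on the right that of C1ra alone does not.

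For pre-miR-223 against anti-miR-223, the contrast that chose C4b, the other members are given without a test. Their differences were -0.08 for C1qa, -0.06 for C1qb, 0.16 for C1qc, -0.14 for Cfb, -0.16 for Cfp, -0.24 for C3ar1 and 0.01 for C5ar1, and each pair of groups overlapped. Without replicate 4 of anti-miR-223 they were 0.01, 0.05, 0.10, -0.17, 0.00, 0.06 and 0.19 in the same order. Of the 18 tested genes of the further list, 8 were higher and 10 lower with the mimic, with a median of -0.03, or 0.07 without that array. C1s2 had the highest difference, 0.46 (95% interval 0.14 to 0.78), or 0.39 (0.07 to 0.71) without it. C1s2 passed the level requirement only through its pre-miR-223 arrays, which lie high in this contrast, so nothing is read from its interval. Cd59a had the lowest, -0.37 (-1.23 to 0.49), which turned to 0.16 (-0.28 to 0.60). Itgax, a chain of complement receptor 4 singled out after its values were seen, had -0.27 (-0.62 to 0.08), or -0.23, and C1ra -0.26 (-0.59 to 0.07), or -0.32 (-0.66 to 0.01).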

How the data were processed

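The authors deposited 1 table of log2 values for 41345 transcript clusters and 12 arrays. Expression Console (Affymetrix), Partek and RMA are listed, without versions or roles, per the submitters' processing notes; the log base is not stated and was taken as 2, since values ran from 0.53 to 12.45. RMA equalises array distributions, so a change in total RNA cannot be seen. The files' genome build is not given in the sources used here. A platform table named the rows: 23521 had 1 symbol, 1814 several and 16010 none. For the 1082 genes with several rows the brightest was used; each member had 1 row.

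One limma 3.58.1 model (R 4.3.3; lmFit, eBayes, 9 residual degrees of freedom, no covariates, 2-sided) was fitted to all 14611 tested genes, with Benjamini-Hochberg adjustment over them. Differences are log2 differences of group means with 95% intervals. Correlations used 100000 permutations. The procedure was tested on simulated data. No pair of arrays was identical. Arrays give no count depth; their number limits precision, with a median half-width of the interval of 0.29.

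The members and lists were chosen with earlier results of these data known. Named genes were the members, C4a, C2, Hc, Serping1, Cr1l, Cd55, Cd59a, C5ar2, Itgam, Itgb2, the 2 genes of the further list with the smallest p in each comparison, and the 5 genes most and 5 least like C4b. C4b's neighbours were added by position. One item of the rule is not reported here. Alternatives were the replicate number as a block, single arrays left out, 3 scalings, 2 level filters, the mean of rows, trend and robust variance, array weights, and 2-group fits.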

Additional observations from a re-analysis of the deposited data

Results flagged for a closer look

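In 3 of 48 groups of 4 arrays, 1 array lay far from the other 3 by Dixon's criterion; chance flags about 1 group in 20. C1qa was low in scramble replicate 3, at 2.32 against 2.48 for the nearest array. Cd59a was high in pre-miR-223 replicate 2, at 3.12 against 2.49 or less in every other array but 2, and high in anti-miR-223 replicate 4, at 4.30 against 2.33 for the nearest of its group.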

How the results depend on the processing

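In all 22 alternatives 0 genes passed limma's test in each of the 3 comparisons, and no named gene passed against scramble (lowest adjusted p = 0.285). No clear pairing of arrays by number was seen. Same-numbered arrays of different groups had correlated deviations for 4 of 12 pairs (r over 0.1, range -0.50 to 0.39), and 2 of 12 arrays correlated best with their own number. Such a check cannot show that there was no pairing. The replicate block left every difference as it was, C4b at 0.60 included, called 0 genes and gave 547, 248 and 408 genes at an unadjusted p under 0.05 for pre-miR-223 and anti-miR-223 against scramble and for mimic against inhibitor, where 711, 294 and 528 had it without the block. That count was 1884, 623 and 793 with array weights, 1339, 248 and 338 with 2-group fits, 1055, 523 and 826 with no level filter and 500, 161 and 356 at the 60th percentile, where fewer genes were tested. With cyclic loess 44.3%, 46.7% and 43.5% of such genes were higher, against 21.0%, 33.0% and 29.0% as deposited.

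Signs of small, uncalled differences turned in places, and the cause was not tested. For pre-miR-223 against scramble, C1qc was -0.00103 and C5ar1 -0.0015 after centring, C1qc -0.017 with array weights, Itgam 0.016 with repeated quantile normalisation, and C3ar1 0.025, Cr1l 0.0053 and Itgam 0.067 with cyclic loess. For anti-miR-223, Cr1l was 0.0061 with repeated quantile normalisation and 0.00042 with cyclic loess; with array weights C3ar1 was -0.10, C5ar1 -0.11, Cd59a -0.23 and Itgam -0.12, and the median of the 8 members moved from 0.05 to -0.10. With single arrays left out, pre-miR-223 minus scramble ranged from -0.042 to 0.11 for C1qc, -0.052 to 0.12 for C5ar1, -0.12 to 0.013 for Itgam, -0.039 to 0.20 for C1ra and -0.0086 to 0.12 for Tnxb. Anti-miR-223 minus scramble ranged from -0.17 to 0.16 for C5ar1, -0.14 to 0.049 for Cr1l, -0.23 to 0.0053 for Cfp, -0.26 to 0.0029 for Itgb2, -0.15 to 0.35 for C3ar1, -0.34 to 0.45 for Cd59a, -0.048 to 0.32 for C5ar2 and -0.18 to 0.20 for Itgam. The members' median ranged from -0.11 to 0.11 for anti-miR-223 minus scramble and from -0.15 to 0.027 for mimic minus inhibitor; -0.11 and 0.027 were the values without anti-miR-223 replicate 4. The correlation of C1qa with C1qb was -0.40 without that array. At 4 arrays a group the interval reached a median of 0.29 to either side of a difference, and C4b, the C1q genes and Cfb lie where the signal is close to background.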

Other observations

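Besides C4b, 10 genes read higher in every anti-miR-223 array than in all 8 others. By the gap between the lowest anti-miR-223 array and the highest other array C4b ranked 2, with 0.14, behind the predicted gene Gm10237 with 0.15 and ahead of Igsf8 with 0.11. Gm10237, with a mean of 1.99 in the other arrays, also passed the level requirement only through the anti-miR-223 arrays. Chmp6, a subunit of the ESCRT-III membrane-remodelling machinery, had a gap of 0.06, with a mean of 4.55 with anti-miR-223 and 4.28 in the other arrays. No complement gene other than C4b was among the 11. This contrast also chose C4b, so the list is a description.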
